A study of Mus musculus with 26 samples.

Results

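Heat shock proteins and their co-chaperones were followed in single mouse retinal amacrine cells. The genes were chosen by symbol: those starting with Hspa, Hspb, Hsp90, Hspd1, Hspe1, Hsph1, Dnaja, Dnajb or Dnajc, the chaperonin subunits Cct2 to Cct8 and the co-chaperones Bag1 to Bag6. Of 18193 genes named on the array, 86 were members, measured by 208 probe sets. Where several probe sets read a gene, that of the highest average on the log2 scale stood for it. A gene counted as detected wherever its signal reached 1000, which is 2 times the trimmed mean of every array. For differences, signals under a floor of 200 were raised to it before the log2 was taken.

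The study picked 26 fluorescent amacrine cells, the inhibitory interneurons of the inner retina, from dissociated mouse retinas and profiled each on 1 Affymetrix Mouse 430 2.0 array to find markers of amacrine classes. Every cell carried a GFP reporter, introduced by electroporation and driven by the Synapsin promoter (pSynapsin) or the Ndrg4 promoter (pNdrg4). The label E19 was carried by 1 pSynapsin cell and P4 by 2 pNdrg4 cells, all cultured for 4 days in vitro. At P5 there were 4 pSynapsin cells and 5 pNdrg4 cells cultured for 5 days, and 10 further pNdrg4 cells whose labels state no culture. At P8 there were 2 pSynapsin cells and 2 pNdrg4 cells cultured for 8 days. Per the labels the reporters marked morphologically distinct sets of amacrine cells, so reporter groups differ in cell type as well as in promoter. Strain, sex, animal and culture of origin are not named, so each group counted as 1 sample and no test between groups was made. SDs below describe the spread over cells.

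Chaperones bind unfolded or partly folded proteins and help them reach or regain their shape. Hsp70 proteins work in cycles of ATP use that are started by DnaJ proteins and reset by nucleotide exchange factors such as Hsp110 and Bag proteins, while Hsp90 acts later on nearly mature clients and the ring-shaped chaperonins TRiC and Hspd1 with Hspe1 enclose theirs. Some members are made at all times in every cell and others mainly after heat or other protein damage. In neurons the J protein Dnajc5 guards synaptic vesicle fusion and Dnajc6 helps to strip clathrin from endocytosed vesicles.

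The constitutive Hspa8, the Hsp90 form Hsp90aa1 and the chaperonin subunit Cct2 were detected in all 26 cells, whereas the heat-inducible Hspa1a, Hspa1b, Hspb1 and Bag3 were detected in none. Of the 86 members, 64 were detected in at least 1 cell and 22 in none. Detection in at least 20 cells was found for 15 members. A further 10 members were detected in 13 to 19 cells, 24 in 6 to 12 cells and 15 in 1 to 5 cells. The 15 are 17.4% of the members, against 4.22% of all genes on the array, and the 22 are 25.6% of the members, against 44.1% of all genes. These shares describe the cells, and no test was made of them.

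**Figure D1:**
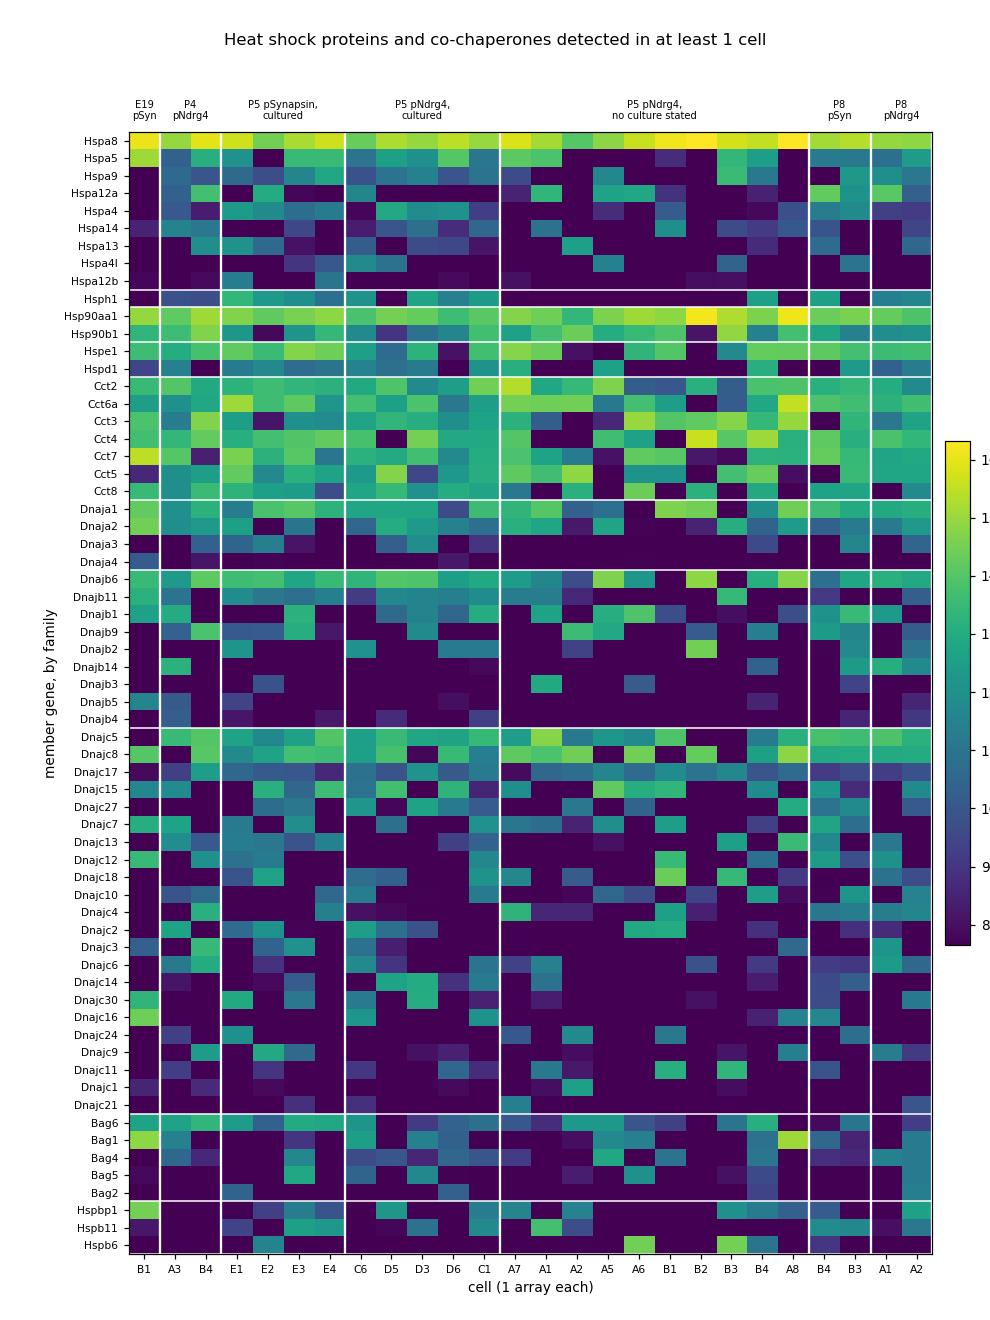
Log2 signal of the 64 members detected in at least 1 of 26 cells, with 1 column per cell, 1 row per gene, columns grouped by age, reporter and stated culture, and rows grouped by family; colours compare cells within a row and not genes with one another. Hspa8 and Hsp90aa1 are bright in every column, most DnaJ C and Bag members are bright in a minority of cells, and the 22 members detected in no cell are not drawn.

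Hspa1a and Hspa1b, the near-identical genes of the inducible cytosolic Hsp70, reached at most 88.1 and 100.4 on any of their 4 probe sets. Each was detected in 0 of 26 cells, which allows a share of up to 13.2% by counting error (exact 95% interval). Hspb1, the inducible small heat shock protein that binds unfolded chains without ATP, reached at most 485, and Bag3, which links Hsp70 clients to autophagy, reached at most 106. Both were detected in 0 of 26 cells at this threshold. Under quantile normalization 1 cell passed for Hspb1. Whether these probe sets can report their transcripts in material amplified from the poly(A) end was not tested. Other members known to be induced by heat were detected, since Dnajb1, a DnaJ partner of Hsp70, was detected in 13 cells and Hsph1, the cytosolic Hsp110 exchange factor, in 12.

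The rest of the undetected members were 4 DnaJ B genes (Dnajb7, Dnajb8, Dnajb12 and Dnajb13), 5 DnaJ C genes (Dnajc5b, Dnajc5g, Dnajc22, Dnajc25 and Dnajc28), Hspa1l and Hspa2, Cct6b, and, taken by the Hspb prefix, Hspb2, Hspb3, Hspb7, Hspb8, Hspb9 and Hspbap1. None of their probe sets, 35 with those of the 4 genes above, reached 1000 in any cell. The nearest to the threshold was Dnajb12, an endoplasmic reticulum membrane J protein, at 939. Cct6b, Hspa1l and Hspa2 are known mainly from the testis. Of the 10 genes taken by the Hspb prefix only Hspb6, Hspb11 and Hspbp1 were detected anywhere. The prefix alone does not make a gene a small heat shock protein, and Hspbp1, for example, is an Hsp70 exchange factor. Hsp90ab1, the constitutive cytosolic Hsp90, had no probe set named for it alone and was not analysed here.

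Among cytosolic members, Hspa8, the constitutive Hsp70 that also uncoats clathrin vesicles, lay between 16689.7 and 82169 with a median of 40566 over the 26 cells. Hsp90aa1, the alpha form of cytosolic Hsp90, lay between 10862 and 74418 with a median of 24333. The spread of Hspa8 over cells was therefore narrow beside that of most members, whose lowest cells were under the floor. Dnaja1 and Dnaja2, J proteins that deliver clients to Hspa8, were detected in 23 and 20 cells. Dnajb6, a J protein known to hold back aggregation of polyglutamine proteins, was detected in 23 cells, as was the synaptic vesicle protein Dnajc5. Dnajc8, which is found with spliceosomes, was detected in 21 cells. In the cells where these 5 genes were not detected their signals were mostly under the floor.

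TRiC is the ring that folds actin and tubulin, and 7 of its member subunits were each detected in 19 to 26 cells. At least 1 of the 7 was not detected in 15 cells. Whether the 7 go together more often than their single rates give was not tested. All 7 of the detected member subunits (Cct2, Cct3, Cct4, Cct5, Cct6a, Cct7 and Cct8) passed in 11 of 26 cells, 6 passed in 7 cells, 5 in 6 cells, 4 in 1 cell and 3 in 1 cell. Tcp1, the remaining subunit of the ring, is not taken by the symbol rule and was detected in 24 cells. Single subunits nevertheless dropped out of single cells. Cct4 had signals of 78, 7527, 7708, 14162 and 23090.1 in the 5 cultured P5 pNdrg4 cells, Cct3 had 279, 3644, 4079.9 and 5749.5 in the 4 P5 pSynapsin cells, and Cct5 had 2.09 and 11515 in the 2 P8 pSynapsin cells. In each of these groups 1 cell was near or under the floor while its neighbours were well above threshold. The cell with 3 subunits and the cell with 4 were both P5 pNdrg4 cells with no culture stated.

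Hspd1 and Hspe1, which together form the chaperonin chamber of the mitochondrial matrix, sit head to head on chromosome 1. Hspe1 was detected in 22 cells and Hspd1 in 15. Both were found in 14 cells, Hspd1 alone in 1, Hspe1 alone in 8 and neither in 3. Hspd1 has 2 annotated starts. From the upstream start the genes overlap, and between the other start and that of Hspe1 lie 215 bases, shown because this stretch holds the only heat shock elements found in these windows for both genes. It spans chr1:55087933-55088147 of GRCm38.p6 and is printed on the plus strand, which is the Hspe1 strand, with the 18 bases covered by 2 overlapping matches in capitals.
Hspe1 and Hspd1: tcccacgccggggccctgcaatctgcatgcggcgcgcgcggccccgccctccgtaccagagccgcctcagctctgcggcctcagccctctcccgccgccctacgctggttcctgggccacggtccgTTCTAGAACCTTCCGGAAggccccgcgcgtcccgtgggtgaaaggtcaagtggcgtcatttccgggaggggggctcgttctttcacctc
The heat shock element was searched on both strands as 3 triplets, alternately TTC and GAA and starting with either, each 2 bases from the next, in RefSeq windows from 250 bases before to 50 bases after each start. Of 71 members with a window, 4 held it: Hspd1, Hspe1, Dnajb6 and Hsph1. Over all genes with a window the share was 0.662% (179 of 27025). The Dnajb6 stretch, shown because its gene was detected in 23 cells, covers the 100 bases before the upstream annotated start at chr5:29735798-29735897 on the plus strand, with its match in capitals.
Dnajb6: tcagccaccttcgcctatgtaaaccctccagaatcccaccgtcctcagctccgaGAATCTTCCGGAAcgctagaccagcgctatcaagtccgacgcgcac
In Hsph1, on the minus strand of chromosome 5, the match TTCTGGAAAGTTC began 36 bases after an annotated start and 15 after another, neither of them the most upstream. A match describes letters only and says nothing of binding in these cells.

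In the endoplasmic reticulum, Hspa5 (BiP), the Hsp70 of that compartment, was detected in 19 cells and Hsp90b1 (Grp94), its Hsp90, in 23. The J proteins that work with Hspa5 were detected less widely: Dnajb11 in 14 cells, Dnajb9 in 13, Dnajc10 in 8 and Dnajc3 in 7. Hspa5 and Dnajb11 were found together in 13 cells, Hspa5 alone in 6, Dnajb11 alone in 1 and neither in 6, and over the 26 cells their floored log2 signals had a Spearman correlation of 0.58. Hspa5 and Hsp90b1 were found together in 18 cells, but their correlation was 0.03. Both figures describe cells that differ in the number of genes detected. The endoplasmic reticulum stress element, searched on both strands as CCAAT and CCACG with 9 bases between them, was found in the windows of 3 of 71 members (Hspa5, Hsp90b1 and Dnajc3) and of 0.137% of all genes (37 of 27025). These stretches, shown because they are the 3 members that hold it, carry the matches in capitals. Hspa5 is chr2:34771970-34772089, plus strand. Hsp90b1 is chr10:86705525-86705664, minus strand, with 2 matches that run in opposite directions. Dnajc3 is chr14:118937792-118937871, plus strand.
Hspa5: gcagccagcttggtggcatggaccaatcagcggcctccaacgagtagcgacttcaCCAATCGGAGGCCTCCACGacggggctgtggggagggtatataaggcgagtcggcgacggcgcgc
Hsp90b1: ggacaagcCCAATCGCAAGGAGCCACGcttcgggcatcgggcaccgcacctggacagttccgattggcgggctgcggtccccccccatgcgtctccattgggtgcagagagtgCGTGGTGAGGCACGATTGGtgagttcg
Dnajc3: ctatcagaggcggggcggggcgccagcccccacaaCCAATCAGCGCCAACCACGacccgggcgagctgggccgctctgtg
The sequences are RefSeq's, of build GRCm38.p6.

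A few members reached high signals in at most 5 cells. Hspb6, a small heat shock protein known from muscle, had signals of 23326 and 22924 in the P5 pNdrg4 cells B3 and A6, which have no culture stated, then 2944 in the P5 pSynapsin cell E2 and 2019.6 in cell B4 with no culture stated. The median over all cells was 52.2. Dnajc16 reached 21820.2 in the E19 cell and passed in 4 others, the next highest of them at 4709.6. Dnajc11, a mitochondrial J protein, reached 10389 and 8962 in 2 cells with no culture stated and passed in 2 others. Of the Bag proteins, Bag6, which handles tail-anchored and mislocalised proteins, was detected in 16 cells, Bag1, an Hsp70 exchange factor, in 11, Bag4 in 10, Bag5 in 5 and Bag2 in 3.

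The number of members found in a cell followed the number of genes found in it. Cells had 12 to 39 members detected, with a median of 30, and 1909 to 4180 genes. Over the 26 cells, which also differ in age, reporter and culture, members and genes detected had a Pearson correlation of 0.88 and a Spearman correlation of 0.90, and the Pearson correlation was 0.87 without the 2 cells farthest from the median. Members made up 0.63% to 1.21% of the genes detected. The lowest share and the lowest count, 12 members, were both those of the P5 pNdrg4 cell B2 with no culture stated, which had 1909 genes detected. With 1 cell per array, less RNA in a cell and less efficient capture of it cannot be told apart. Of 8 amacrine markers, Pax6 was detected in all 26 cells, Slc32a1 in 22, Tfap2b in 20, Tfap2a in 16, Gad2 and Slc6a9 in 14 each, Gad1 in 11 and Stx1a in 6. Of 8 markers of Muller glia, Glul was detected in 18 cells, Dkk3 in 16, Car2 in 14, Vim in 11, Rlbp1 in 5, Slc1a3 and Sox9 in 1 each and Apoe in 0. None of 5 microglia and 2 red blood cell markers was detected in any cell.

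**Figure D2:**
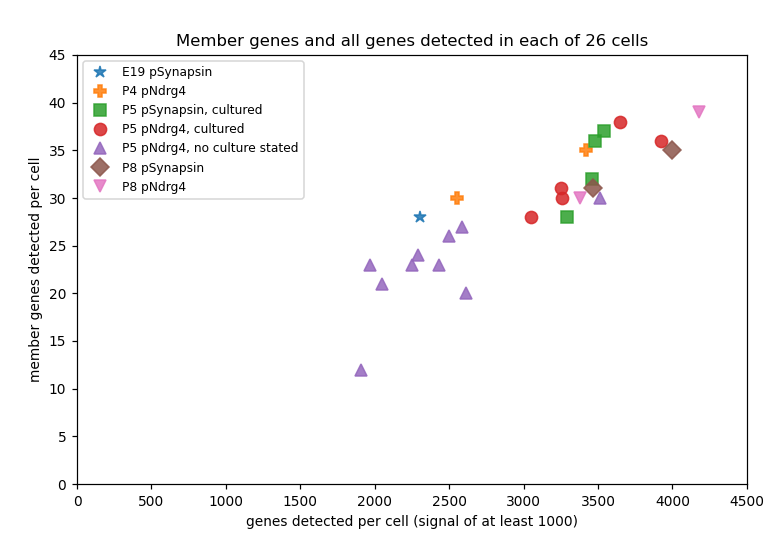
Number of member genes detected against number of all genes detected, 1 point per cell, with symbols for age, reporter and stated culture. Points run from 12 members at 1909 genes to 39 members at 4180 genes, and 9 of 10 pNdrg4 cells of P5 with no culture stated lie at or below 2610 genes.

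Cultured P5 pNdrg4 cells (n = 5) were set against P5 pNdrg4 cells with no culture stated (n = 10). Hsph1 and Hspa4, exchange factors of the Hsp110 type, the endoplasmic reticulum Hsp70 Hspa5 with its J protein Dnajb11, Dnajc14 and the TRiC subunit Cct8 averaged higher in cultured cells, and Hsp90b1 averaged lower. In all, 16 of 86 members were higher by at least 1 on the log2 scale, a background of 12.8% over all genes, and 5 were lower, a background of 4.27%. With the 25 members detected in at least 13 cells, 8 were higher (all such genes 34.4%) and 1 was lower (all such genes 11.4%), so the members' shares, 32.0% and 4.0%, did not stand above those of other widely detected genes. No member had groups that did not overlap, against backgrounds of 0.0989% higher and 0.0605% lower. Under quantile normalization 15 members were higher and 7 lower, and the shares over all genes were 10.4% and 7.57%. Leaving out the cultured cell D5 changed the lower count to 3.

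Hsph1 had the widest difference of the members. Its signals were 6.67, 2744, 4311, 5314 and 6753 in the cultured cells, against 6.41 at the lowest, 14.5 at the median and 6052 at the highest in cells with no culture stated. Detection stood at 4 of 5 cultured cells, against 1 of 10 cells with no culture stated, and the exceptions were cultured cell D5 and cell B4 of the other group, so the groups overlapped. The log2 means were 11.25 ± 2.07 (SD, n = 5) in cultured cells and 8.14 ± 1.56 (SD, n = 10) in cells with no culture stated, a difference of 3.11, which is understated because most cells with no culture stated lay at the floor. A second Hsph1 probe set was detected in 5 cells and differed by 0.32, so the difference rests on 1 of 2 probe sets. Seen after the values were known, Hsph1 was detected in 11 of 13 cells cultured for 5 or 8 days, in 0 of 3 cultured for 4 days and in 1 of 10 with no culture stated. Hspa4, another cytosolic exchange factor of the Hsp110 type, was detected in 9 of 13, 1 of 3 and 1 of 10 of the same cells. Both sets of counts use 1 probe set per gene. For Hsph1 the 0 of 3 depends on the detection threshold. Its signals in the cells cultured for 4 days were 34.9, 839 and 898, the higher 2 just under that threshold. The median in cells with no culture stated was 14.5, so the counts alone do not show a step between 4 and 5 days.

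Hspa4 signals were 223, 605, 3659, 4175 and 7521 in cultured P5 pNdrg4 cells, against 3.08 at the lowest, 165 at the median and 1129 at the highest in cells with no culture stated. The difference was 2.52, with 3 cultured cells above every cell of the other group, and it was 0.88 with the median over probe sets. A second Hspa4 probe set, detected in 9 cells, differed by 0.09, and another, detected in 1 cell, by 0.72. Cct8 was detected in all 5 cultured cells, at 4199, 6695, 6856, 8293 and 11340.5, against 5 of 10 cells with no culture stated, at 8.34 at the lowest, 1183 at the median and 21484 at the highest. Its log2 means were 12.79 ± 0.52 (SD, n = 5) in cultured cells and 10.30 ± 2.91 (SD, n = 10) in the others. Here the difference of 2.50 came from the undetected cells, since the 5 detecting cells with no culture stated lay inside the cultured range in 3 cases, below it in 1 and above it in 1.

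Hspa5 followed the same form. Its signals were 1979, 2118, 4068, 6186 and 16838 in the cultured cells, against 4.76 at the lowest, 272 at the median and 17868 at the highest in cells with no culture stated, where 4 of 10 passed. The difference was 2.04, and 1.57 on its second detected probe set. Dnajb11, the J protein that feeds clients to Hspa5, was detected in 4 of 5 cultured cells at 566, 2666, 3022, 3289 and 3717 and in 3 of 10 with no culture stated, at 11 at the lowest, 183 at the median and 11349 at the highest. The highest Dnajb11 signal of the comparison was nevertheless in a cell with no culture stated, B3, and the difference of means was 2.07. Dnajc14, an endoplasmic reticulum membrane J protein, was detected in 3 of 5 cultured cells at 14.6, 470.1, 2443, 6607 and 8058, against 1 of 10 at 2.1 at the lowest, 30.6 at the median and 1942 at the highest, a difference of 2.65 that was 1.51 with the median over probe sets.

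Lower averages in cultured cells were smaller. Hsp90b1 signals were 507, 1917, 3097, 3493 and 13187 in cultured cells, against 276 at the lowest, 12667 at the median and 30622 at the highest in cells with no culture stated. The difference was -1.55 (log2 means 11.39 ± 1.69, SD, n = 5, and 12.94 ± 1.95, SD, n = 10), and -0.95 without the cultured cell D5. On its chosen probe set Hsp90b1 differed in the direction opposite to Hspa5, the Hsp70 of the same compartment, in the same cells. A second Hsp90b1 probe set, detected in 3 cells, differed by 0.16. Hsp90aa1 differed by -0.85, which was 0.29 with the median over probe sets, -0.05 after quantile normalization and -1.02 without the cell A2 with no culture stated. Hspa8 differed by -0.55, which turned to 0.58 after quantile normalization, so its direction depends on the scaling. Hspe1 (-0.36) and Dnajc8 (-0.35) were the remaining members taken by the naming rule. Hspe1 turned to 0.54 without the cultured cell D6 and Dnajc8 to 0.65 without the cultured cell D3.

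**Figure D3:**
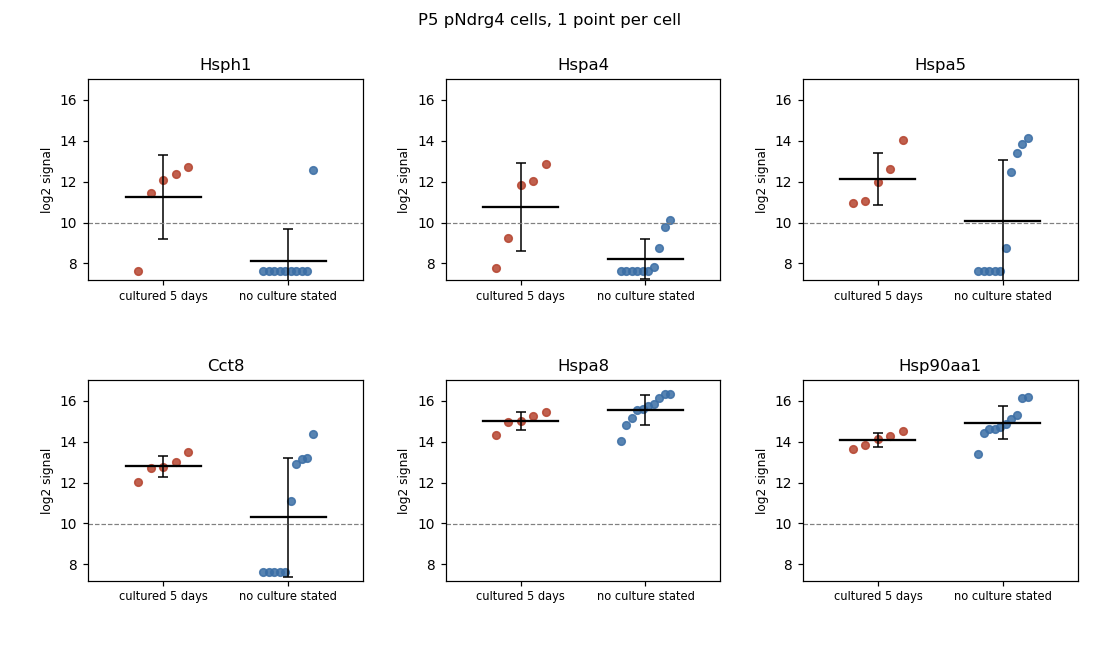
Log2 signal, with a floor of 200, of 6 members in P5 pNdrg4 cells cultured for 5 days (left, n = 5) and with no culture stated (right, n = 10), 1 point per cell, with group means as bars, SDs as whiskers and the threshold of 1000 as a dashed line. Hsph1 is detected in 4 of 5 cultured cells, against 1 of 10 cells with no culture stated, while Hspa8 and Hsp90aa1 are above the threshold in every cell.

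Other measures moved with this comparison. Cultured cells had 3049 to 3925 genes detected, against 1909 to 3513 in cells with no culture stated. Xist, the transcript of the inactive X chromosome, was detected in 5 of 5 cultured cells, against 0 of 10 cells with no culture stated. Gad1, a marker of GABA-releasing cells, was detected in 1 of 5 against 7 of 10, and the glycine transporter gene Slc6a9 in 3 of 5 against 3 of 10. Of 6 housekeeping genes 5 were lower by at least 1 in cultured cells, among them Actg1 at -1.32 and Eef1a1 at -1.14. Rod photoreceptor markers (9 measured) numbered 0 to 1 per cultured cell and 0 to 5 per cell with no culture stated, with summed signals of 313 to 5926 and 350.5 to 61382. Markers of Muller glia (8 measured) numbered 0 to 3 per cultured cell and 1 to 6 per cell with no culture stated, with summed signals of 596 to 20265 and 5204 to 62874, and Vim (-3.00), Car2 (-1.80) and Rlbp1 (-1.04) were lower by at least 1. Progenitor markers (5 measured) numbered 0 to 1 and 0 to 3, with summed signals of 135 to 1424 in cultured cells and 238 to 41242 in cells with no culture stated, and Ccnd1 (-2.07) and Top2a (-1.50) were lower. The part of each in the differences above was not tested.

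At P5 in culture, pSynapsin cells (n = 4) were set against pNdrg4 cells (n = 5), which are the same 5 cultured cells as in the comparison before. Xist was detected in 1 of 4 pSynapsin cells, against 5 of 5 pNdrg4 cells, and its part in the differences was not tested. The mitochondrial co-chaperonin Hspe1 and the quality control factor Bag6 averaged higher in pSynapsin cells, and the exchange factor Bag1, the J protein Dnaja2 and the Hsp70 Hspa14 averaged lower. Of 86 members 11 were higher by at least 1 (background 10.3%) and 12 were lower (background 8.81%). Among those detected in at least 2 cells, 18.3% of members were higher and 20.0% lower, against 20.7% and 18% of all such genes. The members' shares therefore lay near those of other detected genes. No member had groups that did not overlap, where 0.5% of all genes did so higher and 0.247% lower. Scaling to the 75th percentile gave 16 higher and 10 lower, and leaving out the pSynapsin cell E4 gave 17 higher.

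Hspe1 signals were 11993, 19013, 21764 and 26919.9 in pSynapsin cells, against 265, 1625, 5951, 9806 and 13308 in pNdrg4 cells. The difference was 2.58 (log2 means 14.22 ± 0.49, SD, n = 4, and 11.64 ± 2.32, SD, n = 5), and 1.68 without the pNdrg4 cell D6. Hspd1, its partner in the chamber, was detected in 4 of 4 pSynapsin cells at 1706, 2003, 2373 and 3408 and in 4 of 5 pNdrg4 cells at 14.5, 1841, 2366, 2893 and 4259, a difference of 0.51. Only the cell D6 lacked both genes among these 9 cells.

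Bag6 was detected in 4 of 4 pSynapsin cells at 1286, 5522, 7249 and 7996, against 3 of 5 pNdrg4 cells at 159, 559, 1326, 1865 and 4559, a difference of 2.10. Dnajc13, a J protein of endosome sorting, had signals of 932, 2181, 2477 and 2825 in pSynapsin cells, against 4.8, 6.07, 94.8, 623 and 1331 in pNdrg4 cells, a difference of 2.40. All 4 pSynapsin cells lay above 4 of the 5 pNdrg4 cells for Dnajc13, the exception being C1. Dnajb9, a J protein of the endoplasmic reticulum, differed by 1.90, and by 1.01 without the pSynapsin cell E3. Cct4 (1.42) and Dnajc8 (1.11) completed the higher end of the naming rule, but each rested on 1 pNdrg4 cell, since Cct4 differed by 0.24 without D5 and Dnajc8 by 0.11 without D3.

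Bag1 was detected in 0 of 4 pSynapsin cells, at 98.3, 105, 126 and 491, against 3 of 5 pNdrg4 cells, at 112, 159.9, 1302, 2784 and 5667. Its difference was -1.94. Hspa14, an Hsp70 of the ribosome-associated complex, was likewise detected in 0 of 4 pSynapsin cells, at 13.9, 15.3, 44 and 742, against 3 of 5 pNdrg4 cells, at 326, 429, 1001, 1472 and 1841. That difference was -1.57, or -0.78 with the median over probe sets. Dnaja2 was detected in 2 of 4 pSynapsin cells at 58.4, 69.8, 2087 and 6151 and in 5 of 5 pNdrg4 cells at 1442, 1822, 2746, 5102 and 8324, a difference of -1.89 that ranged from -2.85 without E1 to -1.20 without E2 or E4. Dnajc14 differed by -2.36, Cct3 by -1.65 and Dnajb1 by -1.63. Cct3 differed by -0.65 without the pSynapsin cell E2, and Dnajb1 by -3.02 without the pSynapsin cell E3 and -1.04 without the pNdrg4 cell C1.

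**Figure D4:**
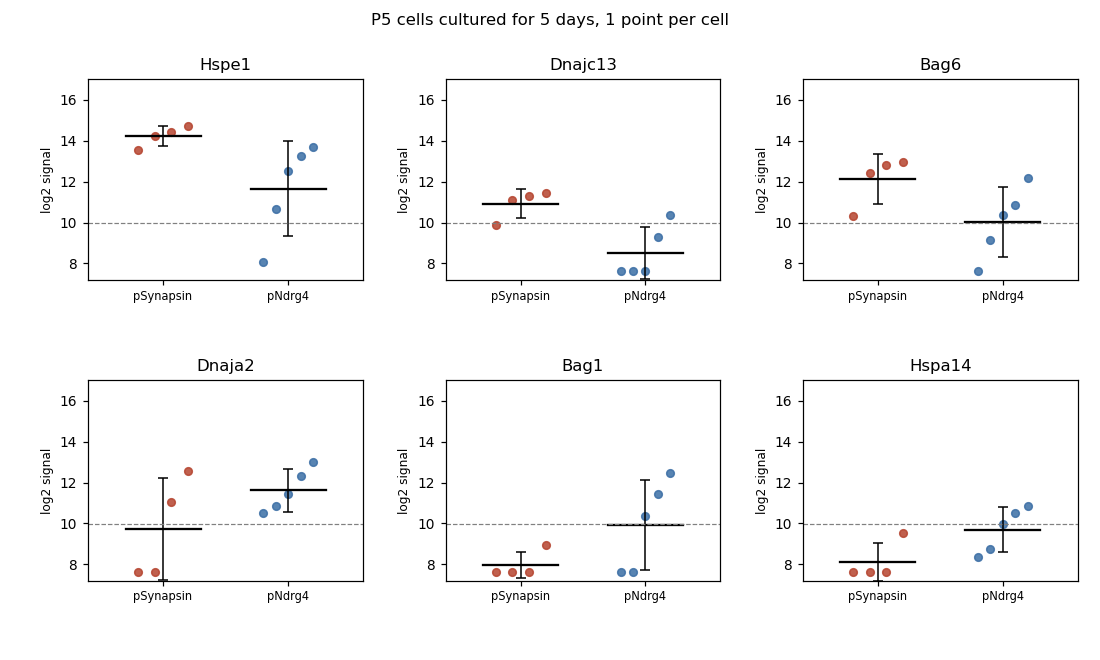
Log2 signal, with a floor of 200, of 6 members in P5 cells cultured for 5 days, pSynapsin (left, n = 4) and pNdrg4 (right, n = 5), 1 point per cell, with group means as bars, SDs as whiskers and the threshold of 1000 as a dashed line. Bag1 and Hspa14 are below the threshold in all 4 pSynapsin cells and above it in 3 of 5 pNdrg4 cells, and for each of the 6 genes the groups overlap.

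The same contrast at P8 had 2 cells against 2. Xist was detected there in 0 of 2 pSynapsin cells, against 2 of 2 pNdrg4 cells, and its part was again not tested. There 14 members were higher by at least 1 (background 13%) and 15 lower (background 12.8%), and scaling to the 75th percentile gave 18 and 12. Among those detected in at least 2 cells, 23.3% of members were higher and 23.3% lower, against 25.1% and 24.7% of all such genes. Without the pNdrg4 cell A2 the higher count was 22, and without the pNdrg4 cell A1 the lower count was 24. Groups did not overlap for 13 members higher (15.1%, background 5.35%) and 8 lower (9.30%, background 5.18%). Those backgrounds include genes detected in no cell (44.1% of all genes against 25.6% of members) and were not taken among detected genes alone. The higher members included Hspa8, Hsp90aa1, Hspe1, Cct2, Cct6a, Cct7 and Cct8. Several of these gaps were small, as for Hspa8 at 35418 and 42224 in pSynapsin cells and 29817 and 31689 in pNdrg4 cells. Dnajb12, among the 8 lower members, was under the detection threshold in all cells. Named members from P5 did not all keep their direction. The differences in pSynapsin minus pNdrg4 cells at P8 were 0.30 for Hspe1, 0.998 for Bag6 and 3.07 for Dnajb9, and -0.99 for Dnaja2 and -1.36 for Cct3, as at P5 in sign. They were 2.79 for Dnajb1, 2.29 for Dnajc14, 0.13 for Bag1 and 0.22 for Hspa14, opposite in sign to P5. With these cell numbers the change between ages was not tested.

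Cultured P8 cells (n = 4) were set against cultured P5 cells (n = 9), the difference being taken within each reporter and averaged. Age and days of culture move together here and cannot be told apart, and both sets of cells also served in the reporter comparisons. Hspa12a, Dnajb14 and Dnajc4 averaged higher at P8, and Dnajb11 and Bag6 lower. Of 86 members 8 were higher by at least 1 (background 9.27%) and 4 were lower (background 6%). Quantile normalization gave 9 and 9, and scaling to the 75th percentile 6 and 6. The lower count was sensitive to single cells: it was 11 without the P8 pNdrg4 cell A2, 10 and 8 without the P8 pSynapsin cells B3 and B4, 8 without either of the P5 pSynapsin cells E2 and E4, and 7 without E3 or the P5 pNdrg4 cell C6. No member had groups that did not overlap, against 0.0989% of all genes higher and 0.0715% lower.

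Hspa12a, a distant relative of the Hsp70 proteins that is abundant in brain, had signals of 4419 and 19426 in P8 pSynapsin cells and 1270.3 and 17572 in P8 pNdrg4 cells. At P5 it had 74.2, 88.4, 224 and 8168 in pSynapsin cells and 44.1, 54.2, 56.4, 132 and 3079.9 in pNdrg4 cells. Detection was in 4 of 4 P8 cells, against 2 of 9 P5 cells. The difference was 3.96 (4.15 within pSynapsin, 3.77 within pNdrg4), but it was 0.15 with the median over its 4 probe sets. Of the other 3, a second probe set with detected cells differed by -0.26, and the 2 detected in no cell by 0.14 and -0.02. Cells with no culture stated also had Hspa12a, in 3 of 10. So did both P4 cells cultured for 4 days, A3 at 1307 and B4 at 13556, while the E19 cell was at 75.8.

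Dnajb14, a J protein of the endoplasmic reticulum membrane, was detected in 3 of 4 P8 cells, at 5.42 and 5307 in pSynapsin cells and 3484 and 8500.2 in pNdrg4 cells, against 0 of 9 P5 cells. The highest P5 signals were 189 in pSynapsin cells and 226 in pNdrg4 cells. The difference was 3.55, and the P8 pSynapsin cell B4 at the floor made the groups overlap. Dnajc4, which was read by 1 probe set, was detected in 4 of 4 P8 cells, at 2134 and 2537 in pSynapsin and 2554 and 3197 in pNdrg4 cells. At P5 it was detected in 1 of 9, at 37.2, 62.5, 111 and 2710.1 in pSynapsin and 22.2, 130.0, 154, 229 and 265 in pNdrg4 cells. Its difference was 3.16, and cell E4 was the single cultured P5 cell in the P8 range. Outside this comparison Dnajc4 lay above all P8 cells in 3 younger cells. It was at 9953 and 6078 in the P5 pNdrg4 cells A7 and B1 with no culture stated, and at 9188 in P4 cell B4. The other P4 cell, A3, and the E19 cell were under the floor.

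Dnajb11 was detected in 1 of 4 P8 cells, at 11.1 and 551 in pSynapsin and 143 and 1237 in pNdrg4 cells. At P5 it was detected in 8 of 9, at 1824, 2191, 2713 and 3681 in pSynapsin and 566, 2666, 3022, 3289 and 3717 in pNdrg4 cells. The difference was -2.54 (-2.92 within pSynapsin, -2.17 within pNdrg4), and the groups overlapped through the P5 cell C6 and the P8 cell A2. Hspa5 was detected in all 4 P8 cells and in 8 of 9 P5 cells and differed by -0.50. Bag6 was detected in 1 of 4 P8 cells, against 7 of 9 P5 cells, and differed by -2.14, or -1.35 without the P8 pSynapsin cell B4.

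The other members taken by the naming rule for age were weaker or rested on single cells. Dnajb1 differed by 1.53, with 3.74 within pSynapsin and -0.68 within pNdrg4, and by 0.36 without the P8 pNdrg4 cell A1. Dnajb9 differed by 1.04 and by 0.40 without the P8 pNdrg4 cell A2. Hspe1 differed by 0.86. Cct8 differed by -1.19 and by -0.17 without A1, and Cct5, at -0.997, turned to 0.46 without the P8 pSynapsin cell B4. Dnajb6, at -0.95, was 0.15 with the median over probe sets. Dnajc15, a mitochondrial J protein, differed by -0.95 and by 0.09 without A1.

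**Figure D5:**
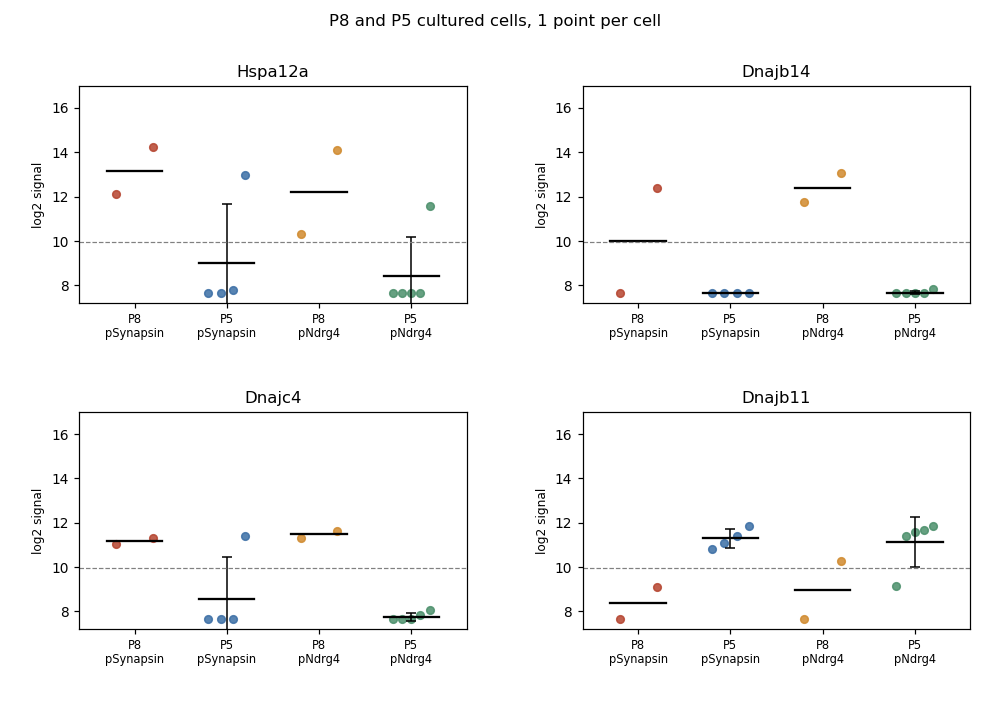
Log2 signal, with a floor of 200, of 4 members in cultured cells of P8 pSynapsin (n = 2), P5 pSynapsin (n = 4), P8 pNdrg4 (n = 2) and P5 pNdrg4 (n = 5), 1 point per cell, with group means as bars, SDs as whiskers for groups over 2 cells and the threshold of 1000 as a dashed line. Dnajb14 is above the threshold in 3 of 4 P8 cells and in none of 9 P5 cells, and Dnajb11 in 1 of 4 P8 cells and 8 of 9 P5 cells.

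Rod photoreceptor markers moved with age in these cells, and with reporter in a direction that was not kept between ages. In pSynapsin against pNdrg4 cells, 7 were higher by at least 1 and 0 lower at P5. At P8 1 was higher and 4 were lower. Of 9 measured, 3 to 8 were detected in P8 pSynapsin cells against 1 to 7 in P5 pSynapsin cells, and 6 to 8 in P8 pNdrg4 cells against 0 to 1 in P5 pNdrg4 cells. Their summed signals were 8968 to 98674 against 7577 to 70425 for pSynapsin, and 35862 to 47388 against 313 to 5926 for pNdrg4. Of the 9, 8 were higher at P8 by at least 1 and Gngt1 was detected in no cell. Of 8 markers of Muller glia, Car2 (2.75) and Vim (1.33) were higher at P8 by at least 1 and Glul (-1.30) was lower, with summed signals over the list of 3015 to 23786 at P8 against 5168 to 30645 at P5 for pSynapsin, and 13532 to 32522 at P8 against 596 to 20265 at P5 for pNdrg4. Their part in the member differences was not tested.

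Partner genes outside the symbol rule were counted in the same way. Of 16 measured partners of Hsp70 and Hsp90, 6 were higher by at least 1 in cultured P5 pNdrg4 cells and 2 lower, with a median of 0.94. The widest was Fkbp4, an Hsp90 immunophilin, at 2.50, detected in 3 of 5 cultured cells and 0 of 10 cells with no culture stated, followed by Stip1, which joins Hsp70 to Hsp90, at 2.14. The lowest was Stub1, a ubiquitin ligase that tags Hsp70 clients, at -1.24. A list of 10 genes around TRiC held the subunits of prefoldin, which passes actin and tubulin to TRiC, together with Tcp1, Pdcl, Pdcl3 and Txndc9. Of these 10, 5 were higher and 0 lower, led by the prefoldin genes Pfdn1 at 3.02 and Pfdn2 at 2.92. Every gene of both lists was detected in at least 6 cells. Among all genes detected in at least 2 cells 26.5% were higher and 9.05% lower, with a median of 0.31, and among those detected in at least 13 cells 34.4% were higher.

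Of 21 genes of folding and the unfolded protein response in the endoplasmic reticulum, 1 was higher and 2 lower in cultured cells than in those with no culture stated, with Manf lowest at -2.55. In P5 pSynapsin cells, against pNdrg4 cells, 8 were higher and 1 lower, and the widest was Herpud1, a factor of protein disposal from that compartment, at 4.22, detected in 4 of 4 pSynapsin cells and 1 of 5 pNdrg4 cells. Over all genes detected in at least 2 cells 20.7% were higher and 18% lower in that contrast. The direction was not kept at P8, with 2 cells against 2, where 2 of the 21 were higher and 7 lower. Among all genes detected in at least 2 cells 25.1% were higher and 24.7% lower there. Herpud1 differed by -2.13 at P8. Of 10 genes of mitochondrial folding and proteolysis 1 was higher and 1 lower in cultured cells. Of 11 general stress genes measured, 6 were detected: Sqstm1 in 17 cells, Gadd45a in 12, Mt1 in 8, Txnrd1 in 6, Gclm in 3 and Mt2 in 1. Hmox1, Nqo1, Atf3, Gadd45b and Serpinh1, the last a heat-inducible collagen chaperone, were detected in 0 of 26 cells. Of 11 early response genes known to rise on tissue dissociation, Jund was detected in 13 cells, Btg2 in 8, Jun in 5, Dusp1 in 4, Fos and Ier2 in 2 each, Egr1 and Ier3 in 1 each and Fosb, Junb and Zfp36 in 0. Of the heat shock factors measured, Hsf2 was detected in 2 cells, Hsf4 in 1 and Hsf5 in 0, while their binding protein Hsbp1 was detected in all 26. Hsf1 was not analysed here.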

How the data were processed

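Gene expression was measured in 26 single cells, 1 array each. Per the labels' protocols, papain-dissociated cells were drawn up with a mouth pipette, and their cDNA was amplified by 35 cycles of PCR. The deposited values are signal intensity values on a linear scale, for which the submitters' processing notes name MAS5 and the sources used here give no version. Every array had a mean of 500 after 2% was trimmed from either end, and no further scaling was applied. The software was matplotlib 3.10.9, scipy 1.17.1, pandas 2.3.3 and numpy 2.4.6 under Python 3.11.15. Of 45101 probe sets 34945 belonged to 1 gene and 932 to several genes, and control probe sets and those of several or no genes were left out. The probe annotation gave 86 members by symbol, all of which matched a current gene identifier.

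A difference is the mean of log2 signals, floored at 200, in the first group minus that in the second, taken gene by gene. It was computed for all 18193 genes and called at a size of at least 1, a 2-fold change. Values at the floor have no order and shorten differences. No animal or dish of origin is named in the labels. Groups were therefore taken as 1 sample apiece, no p-value was made, and the number of arrays limits the precision. Members named in the text were all those detected in at least 20 cells, those detected in at most 5 cells with a signal of at least 10000, and in each comparison the 6 highest and 6 lowest among members that reached 1000 in 60% or more of cells in whichever group was higher. Members of complexes and pairs (TRiC, Hsp90, Hspd1 with Hspe1, the Bag proteins and the heat-inducible members) were also covered, and any others were named after their values were seen. Members, lists and comparisons were chosen with earlier results of these data known. In the culture comparison, tested on simulated data with 2161 genes, 200 planted log2 shifts of 2 came back as 1.56 on average and 68% were called, while 21.3% of the other genes were called too.

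Alternatives were floors of 50 and 500, quantile normalization, scaling to the 75th percentile, the median or highest over a gene's probe sets, filters at 2 and 13 cells, group medians, detection at 500 and 2000 and leaving out each cell. Sequences came from RefSeq windows of 300 bases (GRCm38.p6), matched by gene for 71 members.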

Additional observations from a re-analysis of the deposited data

Results flagged for a closer look

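Within groups of 4 to 10 cells, Dixon's outlier test searched 51 sets of values of named members for a cell that stood apart from the rest of its group. Chance marks about 1 in 20 groups if values are normally spread, which was not checked here, so the marked cells serve as description only. The search found 4 such cells, all of them low. Dnaja1 was at 785.8 in the cultured P5 pNdrg4 cell D6, where the other 4 cells had at least 6874. Cct4 was at 78.0 in the cultured P5 pNdrg4 cell D5, where the other 4 had at least 7527. Hsp90b1 was at 276 in the P5 pNdrg4 cell B2 with no culture stated, the cell with 12 members detected. Cct3 was at 279 in the P5 pSynapsin cell E2, which also lacked Hspa5 and Hsp90b1.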

How the results depend on the processing

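No paired analysis was possible because each cell is its own sample and replicate numbers follow accession order. Counts of members below are those that moved by over 1.5 times, higher or lower by at least 1. With a floor of 50 there were 25 higher and 8 lower for culture, and 8 lower for age. A floor of 500 gave 2 lower for culture, 6 lower for the reporters at P5, 9 higher for the reporters at P8 and 5 higher for age. The filter at 13 cells, which tests fewer genes, gave 8 higher and 1 lower for culture, 6 and 4 for the reporters at P5, 4 and 4 at P8, and 2 higher for age. The median over probe sets gave 3 lower for culture, 5 higher for age and 1 member in all 26 cells. For age, quantile normalization gave 9 lower and group medians 10 lower. Hspa8 and Dnajc8 turned to 0.58 and 0.0208 for culture under quantile normalization, and Hsp90aa1 (culture) and Dnajb6 (age) to 0.29 and 0.15 with the median over probe sets. Leaving out each cell gave 14 to 22 higher and 3 to 6 lower for culture, 11 to 17 and 10 to 14 for the reporters at P5, 14 to 22 and 11 to 24 at P8, and 6 to 10 and 4 to 11 for age. Among named members, culture values without 1 cell ran from -0.85 to 0.65 for Dnajc8 and from -0.87 to 0.54 for Hspe1, and age values from -1.98 to 0.0851 for Dnajc15 and from -2.46 to 0.46 for Cct5. Apart from the floor, the filter and the left-out cells, whose construction changes what can be called, the cause was not tested. With 1 array per cell, amplified by PCR, a missing transcript and a failed capture give the same low signal.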

Other observations

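The pSynapsin cell labelled E19 and the P4 pNdrg4 cells belong to no comparison above. The E19 cell had 28 members among 2306 genes detected, a share of 1.21% and the highest of the 26 cells. Its signals were the highest of all cells for Hspa5, at 34684, and for Cct7, at 45450, and it lacked Dnajc5, at 175. Its Bag1 signal of 29309 was exceeded only in the P5 pNdrg4 cell A8 with no culture stated, at 34700. Hspbp1, the Hsp70 exchange factor, was also highest there, at 23466.

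The P4 cells A3 and B4 had 35 and 30 members detected. Dnajb14, found in 3 of 4 P8 cells and 0 of 9 cultured P5 cells, was at 9612 in P4 cell A3 and under the floor in P4 cell B4. Dnajb9 was at 1324 in A3 and 14839 in B4. Bag6 was detected in all 3 cells cultured for 4 days, at 6452 to 10519.

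Hsph1 and the glycine transporter gene Slc6a9 were found together in 10 cells, Hsph1 alone in 2, Slc6a9 alone in 4 and neither in 10. This count was taken after both genes' values were seen and shares the groups of the culture comparison.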
